A study of Saccharomyces cerevisiae with 6 samples.

Results

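The histidine synthesis genes of Saccharomyces cerevisiae, HIS1 to HIS7, encode the enzymes that build histidine, and all 7 were measured among 5449 genes of this series. They were chosen as the genes that the array annotation names by these symbols. Each had 1 probe set, of the kind designed against a single transcript. The series asks how yeast adapted to galactose expresses its genes when it is put back on glucose. It has 6 Affymetrix arrays of total RNA. The strain evolved on galactose and named 62A gave 1 array, the evolved strain 62B gave 2, the evolved strain 62C gave 1, and the wild type CEN.PK113-7D, called the reference here and the background of the evolved strains, gave 2. All cultures grew aerobically in fermenters at a controlled pH on minimal medium with glucose and were harvested in mid exponential phase. The labels name no mutation of the evolved strains and do not say whether arrays of a strain came from separate cultures. The p-values measure only the spread between these arrays, and the spread within a strain may be technical. That spread is the whole error in tests of single strains and of strains against each other. The comparison of all evolved strains with the reference also takes in the spread between the evolved strains. Since 62A and 62C have a single array each, nothing about their own spread was measured.

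The histidine pathway starts from ATP and phosphoribosyl pyrophosphate (PRPP), a sugar phosphate that purine, pyrimidine and tryptophan synthesis also use. On minimal medium the cells must make all their histidine by this route. The genes belong to the targets of Gcn4, the activator of general amino acid control, whose own synthesis is governed mainly at translation. Bas1 and Pho2, which activate the purine ADE genes, also act on HIS4 and HIS7.

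The values are log2 expression values normalized between arrays by the authors (RMA), so a difference of 1 is a 2-fold difference, and each value is relative to the total RNA on its array. Fewer cells that express a gene and less RNA per cell therefore cannot be told apart. Array medians over the tested genes ran from 7.30 to 7.34, and 96.8% to 97.3% of genes lay above the background level of 5.07. All 7 histidine genes did so on every array. Over all genes the log2 differences had an SD of 0.249 to 0.366 for an evolved array against a reference array, of 0.0695 within the 62B pair and of 0.0956 within the reference pair. The a-type pheromone genes MFA1 and MFA2 lay at 8.36 or above on every array and the alpha pheromone genes at 5.53 or below. URA3 and LEU2, which many auxotrophic laboratory strains lack, lay at 7.90 or above. Levels of the a-type genes were not even across strains. Of 6 a-type genes measured, 6 differed among the evolved strains (limma moderated F, adjusted p under 0.05), as 28.8% of all genes did. At that threshold against the reference, 6 were lower in 62B, where 1161 of 5449 genes were. In 62A 2 were higher, where 546 genes were. In 62C 3 were higher and 1 lower, where 803 and 1270 genes were.

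HIS7, HIS5 and HIS4 fell in the comparison of the 3 evolved strains with 2 reference arrays, to 0.627, 0.691 and 0.732 of the reference level. The other 4 genes had changes below 0 that did not pass the threshold, an adjusted p of 0.05 over all genes. Thus 3 of 7 genes passed downward, where 2.79% of all genes tested did so, and 6 of 7 had an unadjusted p under 0.05, where 28.5% of all genes did. The median log2 change was −0.44 over the 7 genes and −0.03 over all genes. On 6 of the 7 genes every evolved array lay below both reference arrays, a pattern shown by 27.4% of all genes, and HIS6 was the exception.

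The number of calls in this comparison moved with the arrays used, for all genes as well as for the histidine genes. Without 62A, without reference replicate 1 and without reference replicate 2, 0 of the 7 genes passed in limma (5, 6 and 5 at an unadjusted p under 0.05), where 0.0551%, 0% and 0% of all genes passed downward. Without both 62B arrays 6 of the 7 passed, where 14.8% of all genes did. HIS7 also missed the threshold without 62B replicate 2 and without 62C. With strain as a random block HIS4, HIS5 and HIS7 all missed the threshold (limma adjusted p = 0.0849, 0.0663 and 0.0961), where 0.202% of all genes passed downward. For none of these settings was the share of all genes at an unadjusted p under 0.05 counted.

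**Figure D1:**
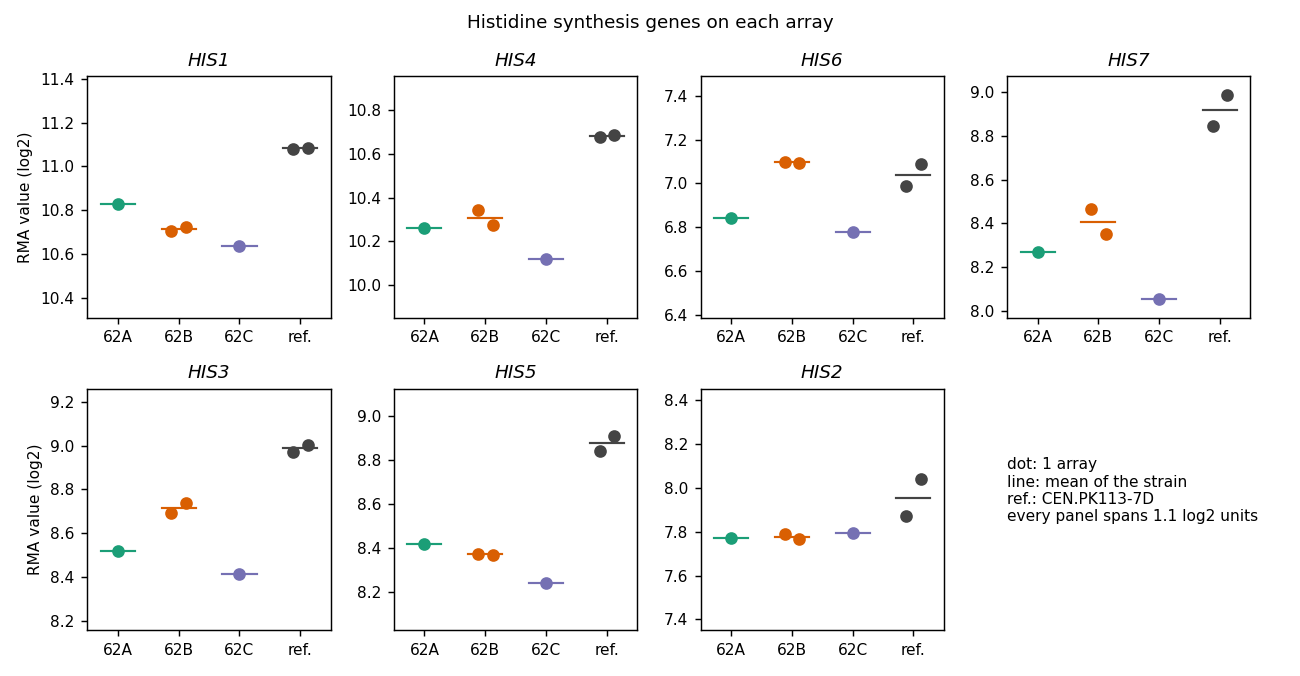
Log2 expression value (y axis) of each histidine synthesis gene on each of 6 arrays, by strain (x axis), with dots for arrays and lines for strain means. HIS6 alone has evolved arrays above the reference arrays, those of 62B, at 7.10 and 7.10 against 6.99 and 7.09.

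HIS1 encodes ATP phosphoribosyltransferase, which joins ATP to PRPP in the first step and is inhibited by histidine. Its log2 level was 10.83 in 62A, 10.71 and 10.72 in 62B and 10.63 in 62C, against 11.08 and 11.09 in the reference. The 4 evolved arrays were all lower, and the gap from the highest of them to the lowest reference array, 0.25, was far wider than the gap between arrays of a strain. The class change of −0.36 ± 0.07 (SE, 3 strains against 2 reference arrays) narrowly missed the threshold (limma adjusted p = 0.0525). It passed under 5 of the alternative settings that were run, among them median centring of the arrays.

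HIS4 encodes an enzyme with several activities, which carries out the next steps after HIS1 and also the final oxidation of histidinol to histidine. Its level was 10.26 in 62A, 10.34 and 10.27 in 62B and 10.12 in 62C, against 10.68 and 10.69 in the reference. All evolved arrays lay at least 0.33 below the reference arrays. The class change was −0.45 ± 0.07 (limma adjusted p = 0.0419), a level 26.8% lower than in the reference.

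HIS6 encodes the isomerase that opens the sugar ring of the intermediate left by HIS4. Its level was 6.84 in 62A, 7.10 and 7.10 in 62B and 6.78 in 62C, against 6.99 and 7.09 in the reference. 62A and 62C lay below the reference arrays and 62B above them. The class change of −0.13 ± 0.11 did not pass (limma adjusted p = 0.46), and its 95% interval ran from −0.40 to 0.13. It was −0.07 without 62C, −0.08 without reference replicate 2 and −0.23 without both 62B arrays.

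HIS7 encodes imidazole glycerol phosphate synthase, which takes nitrogen from glutamine, closes the imidazole ring and releases AICAR, an intermediate of purine synthesis. Its level was 8.27 in 62A, 8.47 and 8.35 in 62B and 8.05 in 62C, against 8.85 and 8.99 in the reference. The groups did not overlap, although HIS7 also had the widest gap between the 62B arrays (0.12) of the 7 genes. It had the largest class change of the pathway, −0.67 ± 0.11 (limma adjusted p = 0.0429), and 0.514% of all genes had a lower change.

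HIS3 encodes imidazole glycerol phosphate dehydratase and is widely used as a selectable marker in yeast. Its level was 8.52 in 62A, 8.69 and 8.74 in 62B and 8.41 in 62C, against 8.97 and 9.00 in the reference. The evolved arrays were all lower, with 62B nearest to the reference. The class change of −0.44 ± 0.10 did not pass (limma adjusted p = 0.0619), and its SE was larger than that of HIS4.

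HIS5 encodes histidinol phosphate aminotransferase, the step that adds the amino group from glutamate. Its level was 8.42 in 62A, 8.37 and 8.37 in 62B and 8.24 in 62C, against 8.84 and 8.91 in the reference. The evolved arrays lay at least 0.42 below the reference arrays, the widest such gap of the 7 genes. The class change was −0.53 ± 0.07 (limma adjusted p = 0.0364), a level 30.9% lower.

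HIS2 encodes histidinol phosphatase, the step before the final oxidation. Its level was 7.77 in 62A, 7.79 and 7.77 in 62B and 7.80 in 62C, against 7.87 and 8.04 in the reference. The evolved arrays lay within a narrow band under both reference arrays, but the reference arrays themselves differed by 0.17. The class change had the same size, −0.17 ± 0.06, and did not pass (limma adjusted p = 0.155). Without reference replicate 2 it was −0.09, and the changes in 62A, 62B and 62C were then −0.10, −0.09 and −0.07.

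Set against the reference singly, each strain had 6 of the 7 genes lower past the threshold. Over all genes 14.9% passed downward in 62A, 21.3% in 62B and 23.3% in 62C. HIS1, HIS3, HIS4, HIS5 and HIS7 fell in all 3 strains, as 8.35% of all genes did. The 3 comparisons share the reference arrays and are not independent of each other or of the class comparison.

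In 62A the changes ran from −0.65 ± 0.08 for HIS7 to −0.18 ± 0.07 for HIS2, which did not pass, with a median of −0.42. HIS6 passed there at the edge of the threshold (−0.20 ± 0.06, limma adjusted p = 0.049), and it missed it in 5 of the alternative settings. In 62B the changes of the genes that fell ran from −0.51 ± 0.06 for HIS7 to −0.18 ± 0.06 for HIS2, and HIS6 had a change of 0.058 ± 0.051 that did not pass (limma adjusted p = 0.396). The fall of HIS2 in 62B (limma adjusted p = 0.0424) was lost without either 62B array and without the reference array of replicate 2.

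In 62C the changes were the lowest for 6 of the 7 genes, which was the case on that array for 38.4% of all genes among the 4 evolved arrays. HIS7 fell to 0.55 of the reference level (−0.86 ± 0.08, limma adjusted p = 3.58e-05) and HIS5 to 0.643 (−0.64 ± 0.06). HIS3, HIS4, HIS1 and HIS6 had changes of −0.57, −0.56, −0.45 and −0.26, and HIS2, at −0.16 ± 0.07, did not pass (limma adjusted p = 0.124). The mean of the 7 genes, as a log2 difference from the reference mean, was −0.38 in 62A, −0.30 and −0.32 in 62B and −0.50 in 62C, against −0.037 and 0.037 on the reference arrays. The SD over the 7 genes on the evolved arrays ran from 0.17 to 0.24, against SEs of 0.046 to 0.077 for the change of a single gene in a single strain.

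**Figure D2:**
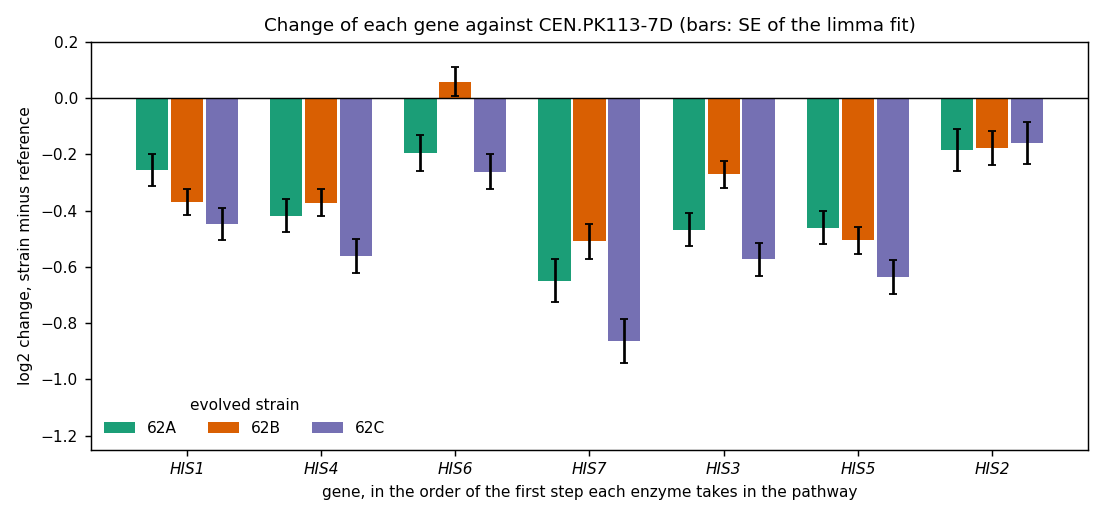
Log2 change of each histidine synthesis gene against the reference (y axis) in 62A, 62B and 62C (bars, with the SE of the limma fit as error bars), in pathway order on the x axis. HIS7 has the lowest change in every strain, down to −0.86 in 62C, and HIS6 in 62B, at 0.058, is the only change above 0.

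Differences among the 3 evolved strains were tested directly. For this test the share of all genes at an unadjusted p under 0.05 was not counted. HIS3, HIS6 and HIS7 differed among them by the moderated F test (limma adjusted p = 0.00872, 0.0072 and 0.0193), which 28.8% of all genes passed. HIS1, HIS2, HIS4 and HIS5 did not pass (limma adjusted p = 0.115, 0.975, 0.0915 and 0.156). Without 62B replicate 1 and without 62B replicate 2, 0 of the 7 genes passed in limma and 3 did at an unadjusted p under 0.05, where 11.5% and 12.9% of all genes passed.

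The pairs were compared for each gene, 21 comparisons in all, with p-values adjusted over all genes of a pair. For 62B against 62C, 4 of 7 genes were higher in 62B, where 33.6% of all genes differed in either direction. These were HIS7 (0.35 ± 0.08, limma adjusted p = 0.00696), HIS6 (0.32 ± 0.06, limma adjusted p = 0.00419), HIS3 (0.30 ± 0.06, limma adjusted p = 0.00397) and HIS4 (0.19 ± 0.06, limma adjusted p = 0.0371). For 62A against 62B, HIS6 alone passed, lower in 62A (−0.25 ± 0.06, limma adjusted p = 0.024), where 16.1% of all genes differed, and HIS3 just missed (−0.20 ± 0.06, limma adjusted p = 0.0501). For 62A against 62C, 0 of 7 genes passed in limma, where 2.42% of all genes differed, and 3 had an unadjusted p under 0.05, as 14.4% of all genes did.

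The order of the levels followed from these values. For HIS3, HIS4, HIS6 and HIS7 the order from low to high was 62C, 62A, 62B. In these genes the neighbours 62C and 62A did not differ past the threshold, and 62A and 62B did so for HIS6 alone. For HIS1 and HIS5 the order was 62C, 62B, 62A, and no neighbours differed past the threshold, with 95% intervals for 62A minus 62B of −0.01 to 0.24 for HIS1 and −0.09 to 0.18 for HIS5. For HIS2 the 3 strains lay within 0.03 of each other, and the interval for 62A minus 62B ran from −0.18 to 0.16.

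RNA integrity controls moved with part of this pattern. The 3' minus 5' log2 difference, averaged over 8 control genes, was 1.89 in 62A, 2.01 and 2.05 in 62B and 1.73 in 62C, against 1.90 and 1.84 in the reference. Among the evolved strains it has the order of HIS3, HIS4, HIS6 and HIS7, but not that of HIS1 and HIS5. A further pair of ACT1 probe sets gave 1.49 in 62A, 1.58 and 1.73 in 62B and 1.41 in 62C, against 1.40 and 1.27 in the reference, so that all evolved arrays lay above the reference arrays. The part of RNA quality in the changes of the histidine genes was not tested.

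Genes that supply the pathway or use its product were also measured. PRS1 to PRS5 encode PRPP synthetase subunits, ADE16 and ADE17 the enzymes that take up AICAR, HTS1 the histidyl-tRNA synthetase and HIP1 a histidine permease. Of these 9 genes 0 passed in the class comparison in limma, where 2.79% of all genes passed downward. An unadjusted p under 0.05 was found for 5 of the 9, where 28.5% of all genes had one. The median change of the 9 genes was −0.18. HTS1 (−0.31 ± 0.06, limma adjusted p = 0.054) and PRS5 (−0.26 ± 0.06, limma adjusted p = 0.0581) came nearest to the threshold.

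Tested in single strains, 4, 4 and 7 of these 9 genes fell in 62A, 62B and 62C. Over all genes 14.9%, 21.3% and 23.3% did so in these strains. HTS1, PRS1 and PRS5 fell in all 3, with HTS1 at −0.29, −0.26 and −0.40. HIP1 fell in 62C (−0.37), while its changes in 62A (−0.17) and 62B (0.0031) did not pass. Of the enzymes that take up the AICAR released by HIS7, ADE17 fell in 62C (−0.30), while ADE16 had a change there of 0.15 that did not pass.

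Among the regulators of the pathway, GCN4 mRNA had a class change of −0.09 ± 0.06 (limma adjusted p = 0.382). It fell in 62B (−0.16, limma adjusted p = 0.0201), while its changes in 62A (−0.11) and 62C (−0.0076) did not pass. GCN2, the kinase that senses uncharged tRNA, and GCN1, its activator, had class changes of −0.26 and −0.28, with limma adjusted p of 0.0579 and 0.0566. Tested in single strains, GCN1 fell in 62A, 62B and 62C (limma adjusted p = 0.00463, 0.00686 and 0.00256), and GCN2 fell in 62B and 62C (limma adjusted p = 0.00524 and 0.0133). Of 8 regulators, with GCN3, GCN20, BAS1, PHO2 and RAP1 as the others, 0 passed in limma and 3 had an unadjusted p under 0.05, where 2.79% of all genes passed downward and 28.5% had such a p. In 62A, 62B and 62C, 2, 3 and 5 of the 8 fell, where 14.9%, 21.3% and 23.3% of all genes did. BAS1 fell in 62A (−0.28) and 62C (−0.51) and had a change of −0.06 in 62B that did not pass, and it differed among the strains (limma adjusted p = 0.00871).

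Genes of purine synthesis and of other amino acid pathways were compared in the same way. Of 9 measured purine synthesis genes, ADE16 and ADE17 again among them, 6 fell in the class comparison (median −0.47), the most changed being ADE1 (−0.65 ± 0.10) and ADE6 (−0.60 ± 0.11), both of the route from PRPP to AMP. Of 42 measured genes of other amino acid pathways 18 fell (median of the 42, −0.38). The lowest change among the 42, −0.71, did not pass the threshold. Most changed of the 18 were ASN1, an asparagine synthetase (−0.64 ± 0.07), and ARO1, of the route to aromatic amino acids (−0.59 ± 0.07). The 6 of 9 and 18 of 42 genes stand beside the 3 of 7 histidine genes and the 2.79% of all genes. Every evolved array lay below both reference arrays for 8 of the 9 purine genes and 37 of the 42 amino acid genes. Over all genes 27.4% had this pattern.

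**Figure D3:**
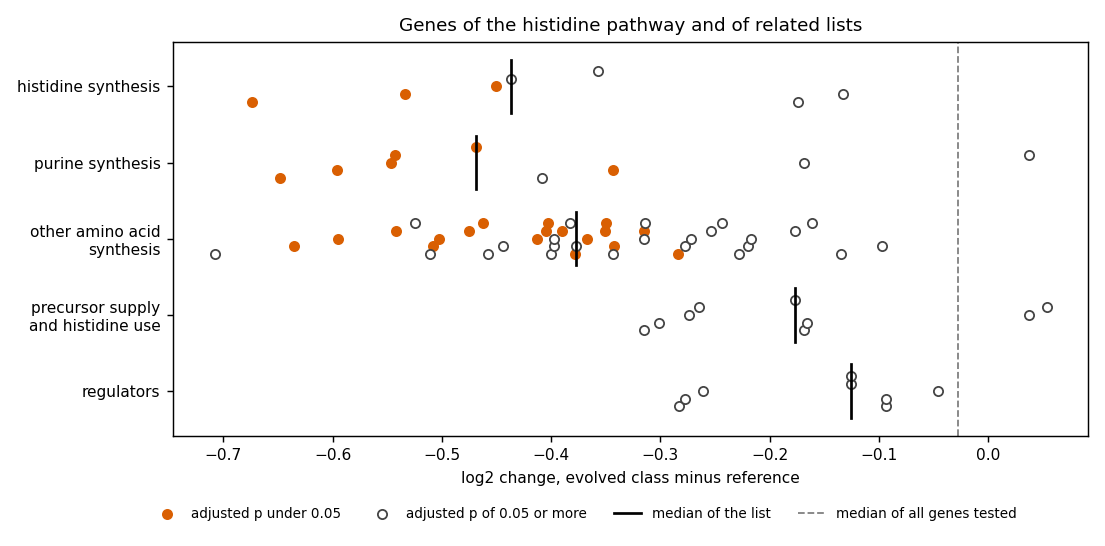
Log2 change of the evolved class against the reference (x axis) for each measured gene of 5 lists (rows), filled where the limma adjusted p was under 0.05. The black lines mark list medians, from −0.47 for purine synthesis to −0.13 for the regulators, and the dashed line marks the median of all genes, −0.03.

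The genes whose pattern was most like that of the pathway were found among 5286 other genes above background. The measure was the root mean square distance between a gene's 4 differences from the reference mean, taken on each evolved array, and those of the mean of the 7 histidine genes. The 5 nearest were DIS3, a catalytic subunit of the RNA exosome (distance 0.0095 on the log2 scale), PYC1, a pyruvate carboxylase (0.014), TRP5 (0.016), SYS1 (0.025) and TRP4 (0.026). TRP5 and TRP4 encode enzymes of tryptophan synthesis, and TRP4 uses PRPP. The histidine genes themselves lay at distances from 0.061 for HIS4 to 0.30 for HIS6.

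The 14 protein-coding genes next to the histidine genes on the chromosome, in the gene order of the RefSeq assembly R64, which is of another strain, were compared in the same fit. Of these, 2 passed downward in the class comparison, where 2.79% of all genes did. In 62A, 62B and 62C, 5, 8 and 8 of the 14 were lower, where 14.9%, 21.3% and 23.3% of all genes were. The calls in the class comparison were PRM5 beside HIS5 (−0.78 ± 0.11, limma adjusted p = 0.0364) and ARO4 beside HIS7 (−0.51 ± 0.05, limma adjusted p = 0.0329). PRM5 encodes a membrane protein induced by pheromone and by cell wall stress, and ARO4 encodes an enzyme that opens the aromatic amino acid pathway. MRM1 and DED1 beside HIS3 had changes of −0.06 ± 0.06 and −0.28 ± 0.07, and RRP7 and BIK1 beside HIS4 had −0.04 ± 0.05 and −0.18 ± 0.05, none of them past the threshold. Beside HIS1, the cytosine and purine permease gene FCY2 had a class change of −0.54 ± 0.20 and GIP2 of 0.28 ± 0.19, which did not pass either. In single strains FCY2 was among the lower genes in 62A, 62B and 62C (−0.41, −0.26 and −0.95). DED1 and BIK1 were lower in 62B (−0.27 and −0.16) and in 62C (−0.35 and −0.20), while MRM1 and RRP7 passed in no strain. GIP2 was the only neighbour higher past the threshold, in 62A (0.23) and 62C (0.63). In these strains 546 and 803 of all 5449 genes were higher. The median change of the 14 neighbours was −0.19.

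**Figure D4:**
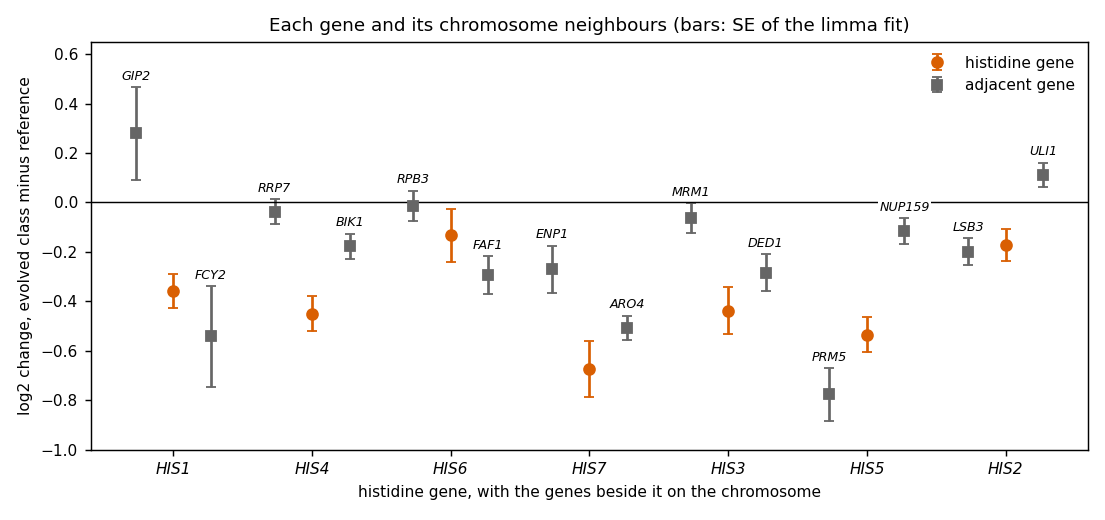
Log2 change of the evolved class against the reference (y axis, with SE as error bars) for each histidine synthesis gene (circles) and the protein-coding genes on either side of it (squares), in pathway order on the x axis. The changes of the neighbours run from −0.78 for PRM5 to 0.28 for GIP2.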

How the data were processed

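The deposited log2 values came from RMA, run by the authors with the package affy according to the submitters' processing notes. Its version, the genome build and which arrays were normalized together are not stated in the labels. Of 10928 probe sets, 5498 matched 1 S. cerevisiae gene each through RefSeq gene identifiers, and 1746 of another yeast gave the background (95th percentile, 5.07). Where a gene had several probe sets, that of highest mean was used. No column was left unused.

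Tests used limma 3.58.1 in R 4.3.3 on all 5449 genes with Benjamini-Hochberg adjustment. The class comparison set 62A, the 62B mean and 62C against 2 reference arrays (3 residual degrees of freedom). Strain comparisons used 1 term per strain over 6 arrays (2 residual degrees of freedom), which takes the single arrays to vary like the paired ones. The reference pair counts as 2 samples of 1 strain. ± is the SE of these fits.

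On simulated arrays of 5449 genes the class fit recovered 80.6% of 67 genes changed by 0.5 on the log2 scale. It also called 8 unchanged genes. The simulation gave strains and reference arrays the same spread, which the real arrays need not have, so the real recovery may be lower. The members and lists were chosen with earlier results of these data known. The genes named are the histidine genes, the first 2 lists, the 2 most changed called genes of each other list, the chromosome neighbours and the 5 genes nearest in pattern, and MFA1, MFA2, URA3 and LEU2 as checks of the strain. ADE5,7, ARG5,6 and TRP1 were not analysed here. The number of arrays limits the precision.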

Additional observations from a re-analysis of the deposited data

Results flagged for a closer look

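HIS3, HIS6 and HIS7 were flagged because their changes against the reference differed among 62A, 62B and 62C by a direct test (limma moderated F, adjusted p = 0.00872, 0.0072 and 0.0193). Over all genes 28.8% passed this test, so passing it is not particular to these genes. All of these calls needed both 62B arrays. In each of HIS3, HIS6 and HIS7, 62B was the highest evolved strain and 62C the lowest. HIS6 was the only histidine gene with changes on both sides of 0, at −0.20 in 62A, 0.058 in 62B and −0.26 in 62C. No group had the 4 or more arrays needed to look for a deviating array.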

How the results depend on the processing

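Of the histidine calls in single strains, 16 of 18 held under every alternative run for them (11 or 12 a strain, with no random block), the exceptions being HIS6 in 62A and HIS2 in 62B. Their error comes from the 62B and reference pairs alone. Over the alternatives that keep all 6 arrays, 5 to 6 of 7 genes were lower in 62A, where 14.9% to 16.4% of all genes were. In 62B 6 were lower, where 21.3% to 25.3% were, and in 62C 6, where 22.4% to 24.7% were. Leaving out an array of 62B or of the reference moved some of these counts and also the shares. The class count of 3, where 2.79% of all genes passed downward, was 0 in limma with strain as a random block (5 at an unadjusted p under 0.05), where 0.202% did, and 6 without both 62B arrays, where 14.8% did, an alternative chosen after seeing the data. Leaving out 1 array at a time gave 0 to 4 for the class and 0 to 4 for the genes that differed among strains (3 in full), where 0% to 3.1% and 11.5% to 43.4% of all genes passed. All 7 class changes stayed below 0 under each of the 15 alternatives. Of the class fits, only the main one had its share of all genes at an unadjusted p under 0.05 counted. HIS1 passed with each evolved array as a sample, with median centring, with an intensity trend, without 62B replicate 1 and without both 62B arrays. Quantile normalization, median centring, genes above background only and the mean of probe sets gave class counts of 3, 4, 3 and 3. Over all genes 2.9%, 3.62%, 2.87% and 2.77% passed downward under these settings. With the replicate number as a block 1 gene, HIS5, passed in the class, where 2.18% of all genes did. The labels do not say whether arrays of the same number belong together. Over genes the 62B and reference replicate differences had a correlation of r = −0.06, which cannot decide it, since each strain gives a single difference. The causes of these shifts were not tested, and the settings that leave arrays out also have fewer samples. The lowest histidine value, 6.78 for HIS6 in 62C, lay above the background level of 5.07.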
